A study of Homo sapiens with 13 samples.

Results

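The 5 wild-type libraries of 3’ READS, out of 13 samples in the series, give a baseline of mRNA 3’ ends in HEK293 Flp-in T-REx cells, which descend from human embryonic kidney. They were chosen by their labels alone, and no library with mutant polymerase enters any value. In these cells, doxycycline (2 µg/ml, 24 hr per the labels) induced an α-amanitin resistant wild-type copy of Rpb1, the largest subunit of Pol II, and α-amanitin (2.5 µg/ml, 42 hr) blocked the endogenous enzyme. The labels disagree on what the copy carries, since the titles of these libraries name Avitag and their source names B10, and the copy sits in pcDNA5, with hygromycin and blasticidin in the medium. The authors’ methods give a shorter induction before α-amanitin than the labels do. The ends seen here are those of the poly(A) RNA present in 1 line that carries a transgene under a continuing drug, with no untreated cells beside it. Which enzyme made each RNA was not measured. The series also holds 4 R749H 3’ READS, 2 wild-type eNETseq and 2 R749H eNETseq libraries, which are not analysed here.

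Most mRNAs end where the cleavage and polyadenylation machinery cuts the nascent transcript and adds a poly(A) tail. The machinery recognizes a hexamer, most often AATAAA in DNA letters, a short distance upstream of the cut. A gene can carry several such sites, and the cut at each site is often spread over neighbouring positions, so a gene makes a set of 3’ isoforms that share a coding sequence and differ in their 3’ UTR. In 3’ READS each read marks 1 end, so the number of reads per gene needs no correction for mRNA length.

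The sequences that frame the results are the last 30 nt of the main isoform, the one with the most reads, in genes that stand for the kinds of site described below. They are read from GRCh37 (hg19), are written 5’ to 3’ as the RNA strand in DNA letters, and end at the last base before the tail. Capitals mark the first hexamer, in a fixed order of 12, that was found in these 30 nt. The most abundant gene and other abundant genes had AATAAA.
RPS14, chr5:149823804-149823833, minus strand: atattttctgttAATAAAttgccttcatgt
RPS6, chr9:19376254-19376283, minus strand: tgagtaacaAATAAAtaagatcagactctg
MIF, chr22:24237380-24237409, plus strand: tggtggggagaAATAAAcggtttagagact
EEF2, chr19:3976055-3976084, minus strand: cattggaatAATAAAtttgataaggtggtg

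The variant ATTAAA, and in RPL7A the rarer variant AATACA, preceded other abundant ends. In RPL41 the hexamer began 8 nt before the end, and in RPL18 and HN1 it began 21 and 18 nt before it.
RPL18, chr19:49118589-49118618, minus strand: tactctcttATTAAAaagatttttgctgac
RPL41, chr12:56511586-56511615, plus strand: cttccgctgttttagctgaagaATTAAAtc
HN1, chr17:73132084-73132113, minus strand: tggatttgtttcATTAAAaagaagcacttt
RPL7A, chr9:136218251-136218280, plus strand: aaataattgaaatAATACAaattttccttc

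None of the 12 hexamers lay in the 40 nt before the main end of SLC25A6 or SRM, and NAT8L had the main end farthest from its stop codon among abundant genes.
SLC25A6, chrX:1505144-1505173, minus strand: aaaacaaaagaatcacgttttcccatttgt
SRM, chr1:11114649-11114678, minus strand: cctcactcaccaaacacgtgtatttatagc
NAT8L, chr4:2070786-2070815, plus strand: ctgtttttcAATAAAaccagagttgaaggc

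Finally, PTBP1 and NME4 each had a pair of sites of similar use, at 1486 and 1395 nt and at 305 and 411 nt after the stop codon, and the leading site differed between libraries.
PTBP1 downstream site, chr19:812283-812312, plus strand: ctggacttcgAATAAAtcttctgtatcctc
PTBP1 upstream site, chr19:812192-812221, plus strand: gagaaccgATTAAAaccgtttgagaaactc
NME4 upstream site, chr16:450618-450647, plus strand: ggggaggcATTAAAattcactgtgcccagc
NME4 downstream site, chr16:450724-450753, plus strand: tgaacAGTAAAgaggaagttttgcacaccc

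The libraries held 2479851, 4594378, 5776894, 10135014 and 5304214 reads in replicates 1 to 5 within 5 kb of a CCDS stop codon, so 1 read was worth between 0.0987 and 0.403 reads per 1000000 such reads (RPM). Replicates 1 and 5 stood apart from the rest. The median gene differed from the mean of the other libraries by 0.34 and 0.35 in size on the log2 scale in these replicates, and by 0.13 to 0.23 in replicates 2 to 4. No pair of libraries agreed within sampling noise, with a chi-square per degree of freedom over genes of 3.76 to 33.8. The labels name no batch, and what sets replicates 1 and 5 apart was not tested.

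Reads fell on 14068 gene names, with 12674 ± 339 (SD, n = 5) of them detected per library, 11329 in every library and 874 in 1 library only. They were concentrated in few genes. The 10 most abundant names held 21.2% ± 1.04 of the reads (20.2, 22.1, 22.1, 21.6 and 19.9% in replicates 1 to 5), and between 83 and 111 names held 50% of them. Names with at least 10000 RPM numbered 14 and held 25.8% ± 1.56 of reads, the 105 names from 1000 to 10000 RPM held 26.8% ± 0.406, and the 1194 names from 100 to 1000 RPM held 30.3% ± 0.711. The 4962 names from 1 to 10 RPM held 2.08% ± 0.402 of reads and the 3316 names under 1 RPM held 0.106% ± 0.0226. Genes on chromosome 19 were 7.73% of the names and held 22.7% ± 0.904 of reads, and 10 of the 25 most abundant genes lie there.

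The most abundant ends belonged to the translation machinery. Of the 25 gene names with the most reads, 20 encode proteins of the cytosolic ribosome and 2 encode translation factors. RPS14, a protein of the small ribosomal subunit, led with 35765, 36007, 32192, 34584 and 29506 RPM in replicates 1 to 5 (33611 ± 2747 RPM). RPL7A, of the large subunit, followed with 25829, 30395, 32095, 32425 and 24289 RPM. RPS14 was above RPL7A in each of the 5 libraries, although the ranges of both genes over libraries overlapped.

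Next came RPL8 (22083 ± 2580 RPM), RPS6 (20021 ± 1513 RPM), which is the ribosomal protein phosphorylated by S6 kinase, and RPL35. RPL35 read 21179, 21692, 21296 and 21752 RPM in replicates 1 to 4 and 13648 RPM in replicate 5, so that its mean rank rested on 1 low library. MIF, a secreted cytokine and the most abundant name outside the translation lists, stood at 15896, 16892, 18603, 17065 and 19563 RPM. EEF2, the elongation factor that moves the ribosome along the mRNA, reached 16472 ± 2014 RPM, and EIF1, which acts in start codon selection, 7671 ± 1524 RPM.

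The other names outside translation were PSMD8, a subunit of the proteasome lid, and the glycolytic enzyme ENO1. PSMD8 was nearly level over the libraries, at 7089.9, 7793, 7225, 7309.9 and 7539 RPM (CV 3.75%). RPL36 varied most among the 25, from 6364 RPM in replicate 1 to 18514 RPM in replicate 5 (CV 37.4%). Among the 24 pairs of neighbours in this order, no pair had separate ranges, and the first gene was higher in all 5 libraries for 4 pairs (RPS14 over RPL7A, RPL7A over RPL8, RPL8 over RPS6, and EEF2 over RPL32). The order of the other neighbours was thus within the spread between libraries.

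**Figure D1:**
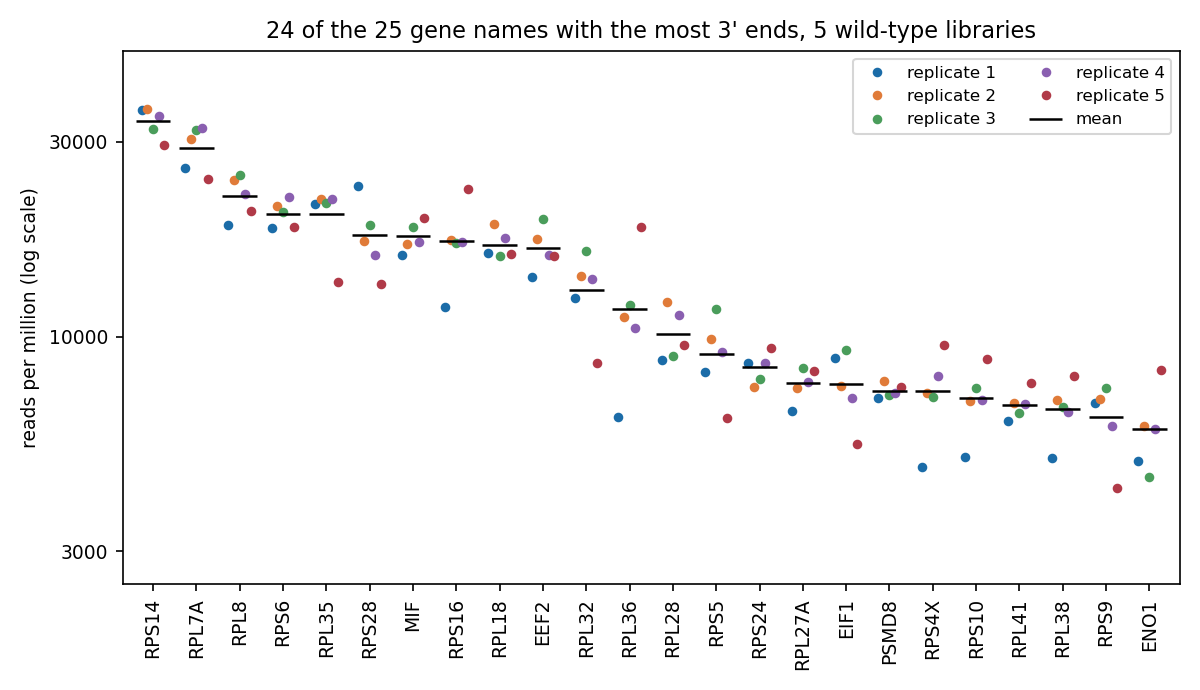
RPM, reads scaled to equal library totals (log scale), of 24 of the 25 gene names with the most 3’ ends, with a point for each of the 5 wild-type libraries and a line at their mean. RPS14 leads at 33611 RPM, and replicates 1 and 5 are often the outer points, as for RPL36 (6364 and 18514 RPM).

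Most proteins of the cytosolic ribosome are present in a single copy per ribosome, whereas the reads of their mRNAs covered a wide range. Together the 78 listed genes with reads held 34.6% ± 1.46 of all reads in a library, with a summed level of 324893 to 360033 RPM. Within the list, 12 genes had at least 10000 RPM, 37 had at least 1000 RPM, 18 had under 100 RPM and 7 had under 10 RPM. The median was 817 RPM. RPL3 read 16.9, 19.6, 25.4, 19.6 and 18.3 RPM, which is low in every library. RPS7 read 0.806, 0.653, 0.346, 0.197 and 0.943 RPM, at or below what 3 reads are worth in 4 of the libraries. RPL7 (0.927 ± 0.758 RPM) was also near the limit of detection. RPS25 read 4.44, 1.74, 2.08, 3.35 and 2.26 RPM, low but above the worth of 3 reads in every library. The translation factor gene EIF3C is not analysed here.

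**Figure D2:**
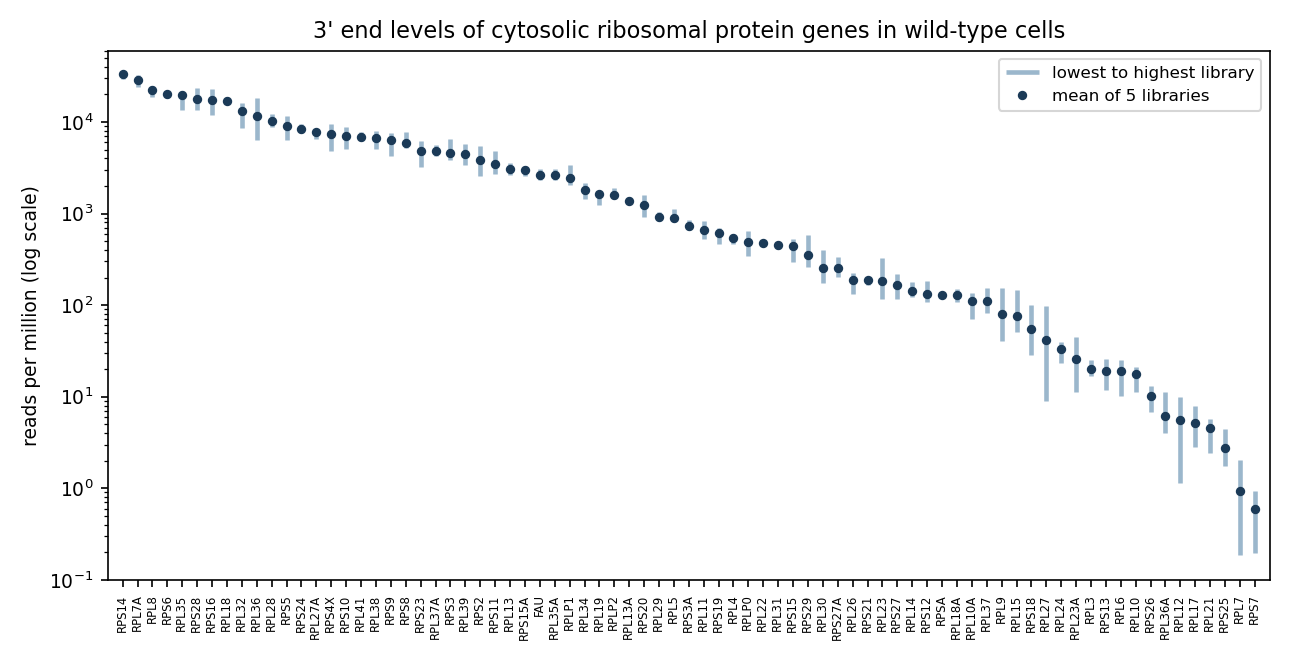
RPM (log scale) of 77 of the 78 cytosolic ribosomal protein genes with reads, in order of their mean; points are means of 5 wild-type libraries and bars span the lowest to the highest library. Means run from 33611 RPM (RPS14) to 0.589 RPM (RPS7), and for most genes the bar is short against that range.

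Other genes known for abundant mRNA also had few ends. EEF1A1, which brings aminoacyl-tRNA to the ribosome, read 35.9, 32.4, 26.1, 26.2 and 33.0 RPM, against 16472 RPM for its partner EEF2. ACTB, which encodes β-actin, read 98.0, 39.8, 37.6, 48.1 and 48.3 RPM, while ACTG1, the other cytoplasmic actin, read 1231, 771, 924, 755 and 610 RPM. The actins were thus separated in every library, with ACTG1 the higher.

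The chaperone HSP90AB1 read 27.4 ± 19.1 RPM and its paralog HSP90AA1 502 ± 62.2 RPM. HSPA8, the constitutive HSP70 chaperone, had 0.403 and 0.346 RPM in replicates 1 and 3 and no read in the other libraries, where 0 reads allow up to 0.296 to 0.653 RPM. TMSB4X, an actin-binding peptide, had a read in 1 library only, and its paralog TMSB10 had 3518 ± 879.7 RPM.

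The reads were mapped without mismatches over their first 30 nt, and how reads with several matches were treated is not given in the sources used here. The annotated ends of EEF1A1, ACTB, HSP90AB1, HSPA8, RPL3, RPS7 and RPL7 had 0 other places in GRCh37 with the same 30 nt, and those of TMSB4X and RPS25 had 1 each. In the ribosomal protein list, the 9 genes whose annotated end had another place had a median of 112 RPM (2.77 to 4861 RPM) and the 69 with none a median of 916 RPM (0.589 to 33611 RPM). The part of such places in the levels was not tested. Among the main ends of the 4292 genes with a mean of at least 100 reads, 151 (3.52%) had another such place and 0 had one that matched over 77 nt.

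Levels and base composition moved together weakly. The G+C content of the 77 nt of genome before the main end had a median of 41.6% in the 26 most abundant of the 78 ribosomal protein genes, 37.01% in the next 26 and 34.4% in the 26 least abundant. Across these 78 genes, which share the libraries, Pearson's r between G+C content and log2 RPM was 0.36 and Spearman's rho 0.39. No read limit was set here, and 69 of the 78 had a mean of at least 100 reads. In the rest the main end was chosen from fewer reads, as in RPL7, where it held 10% of them. Over all 4292 genes, r was 0.24 and rho 0.25, and the 1431 most abundant, the next 1431 and the 1430 least abundant genes had medians of 41.6, 38.96 and 35.1%. RPL7A at 28.6% and ACTB at 48.1% ran against this order. The part of base composition in the levels was not tested.

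Genes of glycolysis held 1.68% ± 0.195 of reads, with 13 of 17 at a mean of at least 100 reads. ENO1 read 4987, 6054, 4544, 5955 and 8328 RPM, and GAPDH, a dehydrogenase of the pathway, 4425, 5369, 4035, 5418 and 4287 RPM. The ranges of ENO1 and GAPDH overlapped. PKM, which makes pyruvate, had 1507 ± 299.9 RPM and ALDOA 1489 ± 288 RPM, while PGK1 had 27.9 ± 11.3 RPM.

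Genes of oxidative phosphorylation held 1.77% ± 0.119 of reads (28 of 36 at a mean of at least 100 reads). They were led by COX6A1, a subunit of cytochrome c oxidase, with 3564, 3604, 2939, 3868 and 3075 RPM, and by the ATP synthase subunits ATP5O (2596 ± 264 RPM), ATP5B (1839 ± 383 RPM) and ATP5I (1320 ± 354 RPM). The chaperone list held 0.470% ± 0.0580 and was led by the cyclophilin PPIA (949.5 ± 291 RPM) and the chaperonin subunits CCT3 (858 ± 247 RPM) and CCT7 (559.5 ± 81.3 RPM). The cytoskeleton list held 1.06% ± 0.0779 and was led by TMSB10 and by the β-tubulins TUBB (2825 ± 429 RPM) and TUBB4B (1077 ± 136 RPM).

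Factors of cleavage and polyadenylation, the machinery that makes these ends, held 0.123% ± 0.0192 of reads for 21 genes. A mean of at least 100 reads was reached by 8 of the 21, against 30.5% of all names. The median of these 8 was 56.0 RPM, near the 54.0 RPM of the 4292 genes that reached it. CPSF1, the largest subunit of the factor that binds the hexamer region, read 381, 502, 426, 496 and 440.4 RPM. SSU72, a phosphatase of the Pol II C-terminal domain, ranged from 141 RPM in replicate 1 to 567 RPM in replicate 5. CPSF3, the endonuclease, had 151 ± 36.1 RPM in 9 isoforms of which none held more than 24.4% of the reads on average. At the low end of the list were CPSF6 (0.373 ± 0.432 RPM) and CPSF7 (0.159 RPM). HSPA8 and TMSB4X, described above, had lower means still.

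POLR2A, which encodes endogenous Rpb1, read 76.2, 73.4, 103, 76.4 and 134 RPM, with 95.02% ± 1.04 of its reads at 1 isoform 433 nt after the stop codon. The induced copy is read from a plasmid insert, and its own 3’ end is not among the positions analysed here.

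The label of the line fits its markers in part. KRT18 (407, 548, 364, 510.1 and 615 RPM), VIM (112 ± 38.3 RPM), KRT8 (56.2 ± 4.94 RPM) and the neurofilament protein INA (48.9 ± 15.4 RPM) were read in all libraries. So were LIN28B (33.8 ± 4.10 RPM) and ZIC2 (16.2 ± 2.28 RPM) of the same list. The kidney gene PAX2 (2.71 RPM) was low but above the worth of 3 reads in every library. The progenitor gene SIX2 (0.964 RPM) and the neurofilament gene NEFM (0.1004 RPM) were lower, each with no read in at least 1 library. NEFL is not analysed here. Markers of liver, blood and immune cells, fibroblasts, endothelium and skeletal muscle summed to 0 to 1.52 RPM per library in each list, and 0 of 5 kidney tubule and podocyte markers and 0 of 2 keratinocyte markers had values here. In the erythroid list the haemoglobin gene HBA1 alone of 4 genes had values, at 52.0, 75.1, 61.5, 58.5 and 48.6 RPM, and 97.8% ± 1.23 of its reads were at 1 isoform. HBA1 has a near-identical copy in HBA2, but the main end of HBA1 had 0 other places in GRCh37 with the same 30 nt. The HeLa-like epithelial list summed to 6.86 to 20.0 RPM, of which LGALS1 was the largest part (13.6 ± 4.62 RPM). In bulk RNA, fewer cells of a type and less RNA per cell cannot be told apart.

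The isoforms of a gene were described for the 4292 names (30.5% of all) whose libraries averaged at least 100 reads, which held 95.8% ± 0.702 of reads. Over all genes 176030 isoforms were found, and most were rare. Those seen in 1 library only were 43.7% of isoforms and 0.391% of reads, while those seen in all 5 were 22.8% of isoforms and 98.2% of reads. The median gene had 3 isoforms above 5% of its main isoform in every library. A single isoform was found in 14.0% ± 0.406 of genes, 2 in 20.8% ± 0.348, 3 in 18.4% ± 0.371, 4 or 5 in 23.7% ± 0.506, 6 to 10 in 18.9% ± 0.406 and 11 or more in 4.28% ± 0.240.

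The main isoform held 62.6% ± 0.245 of the reads of the median gene (62.2, 62.8, 62.7, 62.5 and 62.9% in replicates 1 to 5), with quartiles of 44.9 and 82.6%. RPS28, RPS6, RPL36 and MIF were among the 5 most abundant genes with a single isoform. RPS28 put 98.6, 98.7, 98.8, 98.6 and 98.5% of its reads on 1 position 319 nt after its stop codon, and RPS6 97.5, 97.8, 97.7, 97.9 and 97.5% on 1 position 37 nt after it. RPL7A also had a single isoform above the limit, with 84.5% ± 0.528 of reads and the rest spread over minor positions.

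At the other end, STMN1, a protein that destabilizes microtubules, had 13 isoforms above the limit, and WIZ, SLC29A1 and USF2 had 12 each. In STMN1 the isoform with most reads over all libraries, at 895 nt, held 15.9, 23.6, 16.4, 23.2 and 27.4% of reads. The cluster around it held 37.1, 50.2, 39.9, 49.1 and 56.5%, and the cluster at 448 nt, which led in replicates 1 and 3, held 55.5, 42.9, 51.4, 43.6 and 35.5%. In USF2, a transcription factor, the 12 isoforms lay in 1 cluster that held 96.4% ± 0.698 of reads.

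Isoforms no more than 4 nt apart were joined into clusters. Clusters holding at least 5% of a gene’s reads numbered 1 in 49.8% ± 0.521 of genes, 2 in 29.6% ± 0.658, 3 in 13.1% ± 0.414 and 4 or more in 7.42% ± 0.108, and the main cluster held 86.7% ± 0.247 of reads in the median gene. The main cluster had a median of 2 isoforms and a width of 3 nt. In the 2197 genes with at least 2 clusters, the leading pair lay a median of 21 nt apart, and the larger one was upstream in 1189 (54.1%). The spacing was under 50 nt in 1198 of these genes (54.5%) and over 500 nt in 586 (26.7%).

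In those 586 genes with widely spaced sites, the downstream member took a median of 51.1, 48.1, 47.7, 47.7 and 45.4% of the pair’s reads in replicates 1 to 5 (48.01% ± 2.07). Replicate 1 was the highest library in 231 genes and the lowest in 123, and replicate 5 was the lowest in 204 and the highest in 125. Replicate 3 was the lowest in 140 genes. The gene’s own range over libraries had a median of 15.5 percentage points. VMA21, an assembly factor of the vacuolar proton pump, used a site 102 nt after its stop codon for 11.7, 20.4, 21.7, 23.3 and 22.5% of its reads and a site 4305 nt after it for 79.6, 66.8, 64.8, 63.4 and 62.3%. Replicate 1 was the library with more of the long form. ELAVL1, which encodes the RNA-binding protein HuR, used the site 52 nt after its stop codon for 35.4, 25.6, 19.3, 27.8 and 13.4% and the site 1208 nt after it for 36.9, 48.7, 54.2, 42.5 and 60.96%.

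HN1 used its near site, 13 nt after the stop codon, for 83.6% ± 2.57 of reads and a site 738 nt downstream of it for 15.1% ± 2.31. EIF1 had a lesser site 643 nt downstream of its main cluster, with 5.23, 6.76, 4.93, 8.47 and 14.1% of reads, which was highest in replicate 5. Of the 17 genes listed for tandem sites, 13 had a mean of at least 100 reads, and 11 of these had at least 2 clusters, against 2197 of 4292 genes. Their main isoform lay a median of 1351 nt after the stop codon, against 518.6 nt over all genes. DDX6 of this list is not analysed here. RAC1, a small GTPase, read 332, 191, 181, 192 and 151 RPM and put 81.9% ± 3.85 of its reads at 1520 nt, and CCND1, cyclin D1, had 83.2 ± 42.98 RPM with 88.8% ± 4.14 at 3191 nt.

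Main isoforms lay closer to the coding region in abundant genes than in others. The median distance from the stop codon was 518.6 ± 4.94 nt (526.5, 519.5, 514, 518 and 515 nt in replicates 1 to 5), the quartiles were 216 and 1194 nt, and 29.4% ± 0.288 of genes had their main isoform beyond 1000 nt. Taken over reads rather than genes, the median was 158 ± 11.03 nt. All distances here are counted along the genome and include any intron after the stop codon. They are therefore not 3’ UTR lengths. Within 100 nt of the stop codon lay 10.7% ± 0.0390 of main isoforms and 40.8% ± 1.63 of reads, and beyond 3000 nt 5.02% ± 0.0817 and 1.77% ± 0.254. Of the 25 most abundant genes, 19 had their main isoform within 100 nt.

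Among genes with at least 1000 reads per library, the nearest main isoforms were those of HN1, SURF2, NANS, RPL13 and ATP13A2, at 13, 17, 20, 23 and 27 nt. NANS, the sialic acid synthase, had 93.2% ± 1.14 of its reads at that site. RPL13, of the large ribosomal subunit, had 39.7% of its reads at 23 nt, and a cluster 11 nt downstream took 30.4, 35.6, 30.9, 35.2 and 44.4%. The farthest were NAT8L (4961 nt), VMA21 (4305 nt), PLCXD1 (4018 nt), SPCS3 (3913 nt) and KIF1A (3596 nt). NAT8L, which makes N-acetylaspartate, had 90.8, 93.8, 93.2, 92.7 and 91.8% of its reads at the far end, and by the rule of choice each of these 10 genes had the same main isoform in all libraries. Since ends beyond 5 kb were not assigned to a gene, more distant ends are not seen here.

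The 1431 most abundant of the 4292 genes (89.9 to 33611 RPM) had a median distance of 332 nt and the 1430 least abundant (16.6 to 36.2 RPM) of 707.5 nt. The difference was -388, -381.5, -368.5, -374 and -364.5 nt in replicates 1 to 5 (-375 ± 9.54 nt, n = 5), with an exact two-sided sign-flip p of 0.0625, the smallest that 5 libraries allow. In the 69 ribosomal protein genes with a mean of at least 100 reads the median distance was 53 nt, against 532 nt in all other genes, a difference of -479 ± 2.12 nt with the same sign in 5 of 5 libraries and the same exact p of 0.0625. With 5 libraries this test cannot reach 0.05, and the libraries share the genes, so it measures only the spread between libraries.

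After each gene and library was thinned to 100 reads, genes with their main isoform over 1000 nt from the stop codon had 4.38 isoforms on average and genes with it under 300 nt had 3.77. The difference was 0.533, 0.691, 0.620, 0.578 and 0.614 isoforms (0.607 ± 0.0582, n = 5, exact two-sided sign-flip p = 0.0625). Here too the test measures only the spread between libraries. Genes with under 100 reads in a library were left out of that library, so the sets compared differed between libraries. The far and near groups held 742 and 1050 genes in replicate 1 and 1260 and 1434 in replicate 4.

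The main isoform ended at the same nucleotide in all 5 libraries in 3672 of 4292 genes (85.6%), and in 714 of the 765 genes with at least 1000 reads (93.3%). It differed by 1 to 4 nt in 196 genes, by 5 to 24 nt in 181 and by at least 25 nt in 243. All 25 of the most abundant genes kept the same nucleotide. Where only 1 library differed, it was replicate 1 in 121 genes and replicate 5 in 102, against 42, 56 and 21 in replicates 2, 3 and 4.

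The 5 most abundant genes whose leading site fell in another cluster in some library had pairs of sites that were often of similar use. PTBP1, a splicing repressor, had its main isoform, a single position, at 1486 nt in replicates 1, 3 and 4 and at 1395 nt in replicates 2 and 5. By cluster, the upstream site led in every library except replicate 3. Its downstream cluster held 44.5, 44.9, 50.9, 44.9 and 43.9% of reads and the upstream one 45.0, 45.1, 39.6, 45.5 and 47.2%. Neither PTBP1 cluster led by more than a few points except in replicate 3.

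NME4, a mitochondrial nucleoside diphosphate kinase, used its site at 305 nt for 33.1, 50.9, 42.0, 50.2 and 55.9% of reads, and the cluster 106 nt downstream led in replicates 1 and 3 with 54.9 and 47.6%. ATP5E, a small subunit of ATP synthase, used the end at 1620 nt for 59.9, 49.2, 54.5, 49.96 and 32.3% and the cluster 7 nt downstream for 36.4, 47.4, 41.9, 46.3 and 63.95%, so that the downstream cluster led in replicate 5. PITX1, a homeodomain factor, and RPL19 had leading pairs at 1044 and 997 nt and at 79 and 72 nt.

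Of the 4292 main isoforms, 3685 (85.9%) lay within 24 nt of an annotated transcript end, and 98.4% lay in an annotated untranslated exon. Reads followed the annotation more closely than isoforms did, since 91.8% of all reads but 51.1% of all isoforms lay within 24 nt of an annotated end. TUBB was an exception, with its main end at 179 nt lying 832 nt from the nearest annotated end and holding 92.2, 90.4, 91.4, 90.3 and 88.1% of reads. ELAVL1 and RPS4X also ended mainly 884 and 109 nt away from an annotated end.

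Poly(A) hexamers were far more frequent just before the main ends than to either side. AATAAA lay in the 40 nt before the end in 67.9% ± 0.124 of main isoforms (68.0, 68.1, 67.9, 68.0 and 67.7% in replicates 1 to 5), against 1.51 to 1.70% in windows of the same length shifted to either side. ATTAAA without AATAAA was found in 16.5% ± 0.0941, only others of the 12 in 10.8% ± 0.0881, and none in 4.79% ± 0.0711. The median start was 20 nt before the end for AATAAA (quartiles 18 and 23 nt) and for ATTAAA (18 and 23 nt). In the ends of RPS6 and RPL18 printed above, the hexamer began 21 nt before the end. Besides AATAAA, the 12 hexamers held its variants at the first base (TATAAA as well as CATAAA as well as GATAAA), at the second (ATTAAA as well as AGTAAA as well as ACTAAA), in the middle (AAGAAA as well as AATGAA) and near the end (AATATA as well as AATACA as well as AATAGA). They were searched on the RNA strand only, and a window could hold several of them.

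Over all isoforms, minor ones included, AATAAA preceded 46.6% of ends and any of the 12 preceded 79.4%, against 68.1 and 95.2% of the main ends. The base after the main end was A in 83.9% of genes. As at the end of a read count as tail, and none of the 176030 isoforms ended in A. T made up 36.4% of bases from 11 to 40 nt after the end and 26.8% from 61 to 100 nt after it.

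**Figure D3:**
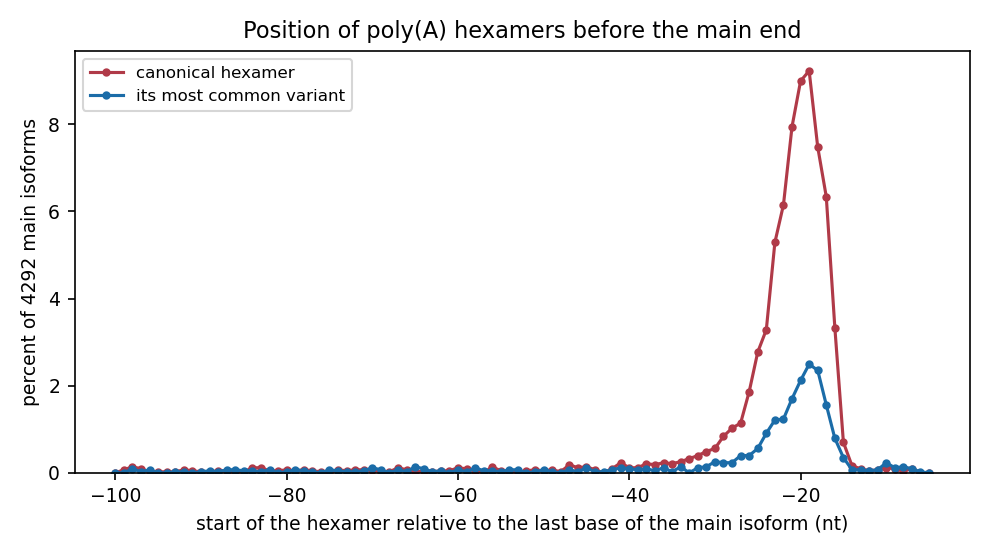
Percent of the 4292 main isoforms in which AATAAA (canonical hexamer) or ATTAAA (its most common variant) begins at each position before the last base of the isoform. Both curves peak close to 20 nt before the end and are near 0 outside 10 to 40 nt.

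The main isoform held 64.1% ± 0.234 of reads in the 2921 genes with AATAAA, 62.5% ± 0.266 in the 699 with ATTAAA alone, 58.4% ± 0.443 in the 468 with only other variants and 54.0% ± 1.19 in the 204 with none. The difference between genes with AATAAA and those with none was 11.3, 10.5, 10.1, 9.96 and 8.56 percentage points (10.1 ± 0.994, n = 5, exact two-sided sign-flip p = 0.0625). Since every library compares the same genes, this test too measures only the spread between libraries. The genes with none lay nearer the stop codon, with a median distance of 370.4 ± 5.58 nt against 538 nt for AATAAA.

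Main ends without any of the 12 hexamers occurred in abundant genes too. SLC25A6, an ADP/ATP carrier of mitochondria, read 5273, 4268, 3702, 3824 and 3652 RPM, with 8 isoforms, the largest at 37.6% ± 0.961. SRM, spermidine synthase, read 639, 747, 651, 895.5 and 1251 RPM and put 95.9% ± 0.467 of its reads on 1 isoform 273 nt after the stop codon. EDF1, a transcriptional coactivator, and PKMYT1, a kinase that inhibits CDK1, had 40.4 and 44.3% at their main ends. CPSF1 also had none of the 12 before its main end, which held 90.9% ± 0.499 of its reads.

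Levels per gene varied over the 5 libraries by a median CV of 19.9% (quartiles 14.1 and 27.3%), where counting error alone gives 6.33%. The CV fell less with depth than counting error did, at 21.2% for genes with 100 to 300 reads, 17.6% for 1000 to 10000 and 15.2% above 10000, while counting error fell from 8.48 to 0.696%. Without replicates 1 and 5, a choice made after the values were seen, the median CV was 11.7%. A CV over 50% was found in 95 genes (2.21%) and one under 10% in 435 (10.1%).

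**Figure D4:**
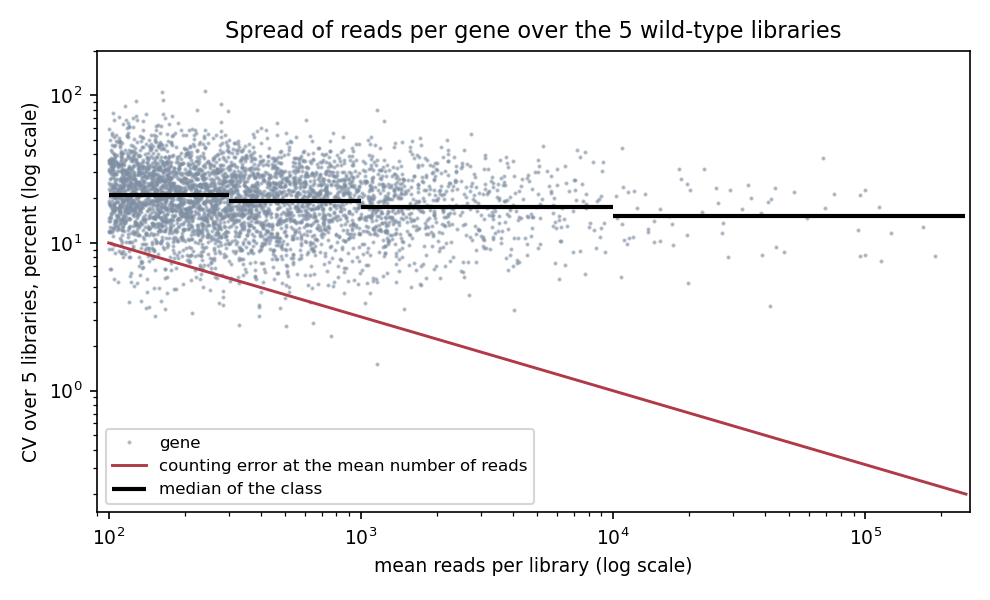
CV over the 5 wild-type libraries against the mean number of reads per library (both log scales), with a point for each of 4292 genes, black lines at the median of 4 classes and a red line at the CV that counting error alone gives. The medians lie between 15.2 and 21.2% at all depths, while the line falls below 1% above 10000 reads.

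Among the highest CVs of genes with at least 1000 reads, 1 library stood far above the rest in DCTN2, EIF4G2 and EMC10. In TPI1 and U2AF2 the highest library was less far from the next. DCTN2, a subunit of dynactin, read 602, 179, 221, 169.9 and 93.9 RPM (CV 79.2%). EIF4G2, a translation factor related to eIF4G, read 572, 184, 169, 199.7 and 176 RPM (CV 67.2%), and EMC10, of the ER membrane complex, 1090.4, 430.5, 404, 459 and 377 RPM (CV 54.7%). TPI1, a glycolytic enzyme, read 645, 259, 402, 227 and 218 RPM. Replicate 1 was the highest library for these 4 genes, and replicate 5 for U2AF2, a splicing factor, which read 123, 168, 107, 191 and 353 RPM.

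The lowest CVs were those of APOA1BP, at 200.4, 204, 206, 209 and 203 RPM (CV 1.52%), MZT2A, a protein of the γ-tubulin complex (3.53%), the cadherin CELSR2 (3.58%), PSMD8 (3.75%) and USF2 (3.93%). APOA1BP was below the 3.25% that counting error alone gives at its depth. The main isoform share had a median SD of 3.45 percentage points per gene over the libraries, and over 10 points in 126 genes (2.94%).

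Base composition moved with the libraries. In the 1431 genes with the lowest G+C content before the main end, the median difference from the mean of the other libraries on the log2 scale was 0.16 in replicate 1 and 0.07 in replicate 5, and in the 1430 genes with the highest it was -0.08 and -0.09. In replicates 2 and 3 the signs were opposite, at -0.18 and -0.16 in the lowest group and 0.02 and 0.08 in the highest. Replicate 1 was also the shallowest library, while replicate 5 had the middle depth of the 5. The part of base composition or depth in the spread was not tested.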

How the data were processed

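The data are 5 wild-type libraries of poly(A) RNA ends. Before deposit the authors trimmed reads of their 4 random nt and of Ts at the start, cut them to at most 77 nt, aligned them to hg19 with bowtie without mismatches in the first 30 nt, kept those with non-templated As, removed mitochondrial reads and gave each end to the nearest upstream CCDS stop codon within 5 kb. The deposited signal is the number of reads at an isoform after scaling of every library to 7 M poly(A) reads, or to 25 M for the pooled table. Whole reads were recovered by dividing each library by its smallest step. All values (100%) came out whole within 0.1 read, and their sums equalled the pooled values at all 176030 isoforms. PCR copies could not be removed, so intervals and floors cover counting error only.

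Levels (RPM) are reads per 1000000 reads assigned within 5 kb, and no depth other than these totals was used. The isoform measures used genes with a mean of at least 100 reads, isoforms above 5% of the main isoform, and clusters joined at 4 nt. Where a position had stop codons of several names upstream (1863 isoforms, 3.88% of reads), the authors’ assignment was kept. Ends, hexamers and G+C content were read from GRCh37 with GENCODE annotation, in which the stop codons of 99.5% of CCDS entries were found. The G+C window is genomic and can reach into an intron in genes with a short 3’ UTR. Measures were computed per library and given as mean ± SD. Differences were tested with an exact two-sided sign-flip test over libraries. Python 3.11.15, numpy 2.4.6, pandas 2.3.3 and scipy 1.17.1 were used, with edgeR 4.0.16 and DESeq2 1.42.0 for scaling factors only. The scripts were tested on simulated data with known answers.

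The members and gene lists were chosen with earlier results of these data known. By rule, the genes named were the 25 with most reads, the 5 nearest and 5 farthest main isoforms, the 5 with most isoforms and the 5 most abundant with 1, the 5 highest and 5 lowest CVs (these with at least 1000 reads), the 5 most abundant with no hexamer and with a main isoform that changed cluster, the 4 highest of each list and those at 0, and POLR2A. Others were chosen after their values were seen (among them ACTB, EEF1A1, HSP90AB1, HSPA8, TMSB4X, RPL3, RPS7, RPL7, RPS25, PGK1, CPSF6, CPSF7, PAX2, SIX2 and NEFM), as were the tallies by G+C content and chromosome, the search for matching places in the genome and the shares of widely spaced sites. The alternatives were another scaling (TMM or DESeq2), read limit, isoform limit, join, hexamer window, tolerance and assignment, thinned libraries, and each library left out. Some genes that the rule names are not reported here.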

Additional observations from a re-analysis of the deposited data

Results flagged for a closer look

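Among 85 named genes, the level was far from the rest in 1 library for 9 genes and the main isoform share for 11. The rule used would flag about 1 in 20 if values were normally distributed. The share flagged over all genes was not counted, so these numbers are not a trait of the named genes. Over all 4292 genes, replicate 1 was the highest library in 35.2% and the lowest in 26.2%, and replicate 5 in 32.8 and 29.2%. Replicate 1 was the far library for 7 levels and 3 shares, replicate 5 for 1 level and 7 shares, and replicate 3 for 1 level and 1 share. The highest and lowest CVs had been used to choose some of these genes. None of the 15 summary measures was far from the rest in any library.

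In replicate 1, levels were high for DCTN2 (602 RPM against 93.9 to 221 RPM in the other libraries), EIF4G2 (572 against 169 to 199.7 RPM), EMC10 (1090.4 against 377 to 459 RPM), EDF1 (963 against 667 to 702 RPM), ATP5I (1941 against 1085 to 1260.0 RPM), RAC1 (332 against 151 to 192 RPM) and VIM (179 against 81.1 to 105 RPM). Main isoform shares in that library were 79.6% for VMA21 (62.3 to 66.8% in the others), 45.3% for RPL19 (50.7 to 52.1%) and 84.5% for SSU72 (92.2 to 94.1%).

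In replicate 5, RPL35 was low at 13648 RPM (21179 to 21752 RPM in the others). The main isoform share was 73.8% for RPS14 (79.6 to 81.5%), 59.7% for SURF2 (63.4 to 64.5%), 84.7% for DCTN2 (91.9 to 94.6%) and 62.4% for ATP5B (68.6 to 70.4%), all lower than elsewhere. That of RPL28 was 55.1% (55.6 to 55.7%), a small gap. It was higher than elsewhere for CCT3 at 94.8% (93.4 to 93.7%) and COX6A1 at 80.2% (76.3 to 77.3%).

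In replicate 3, RPL19 was low at 1238 RPM (1629 to 1766 RPM), and the main isoform share was 39.2% for PTBP1 (34.8 to 35.4%).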

How the results depend on the processing

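No measure changed direction under any alternative, and the 4 differences between groups of genes kept their sign in every library set. With each library left out in turn, the main isoform share ran from 62.3 to 63.3%, clusters per gene from 1 to 2, the main cluster share from 86.4 to 87.2%, the distance from 498 to 532 nt, genes beyond 1000 nt from 28.1 to 29.9%, genes with the same main isoform from 86.3 to 88.0% and AATAAA from 67.8 to 68.1%; this refits which genes reach 100 reads. Without replicates 1 and 5 (chosen after seeing the data), these were 62.1% for the main share, 86.2% for the main cluster, 539 nt, 30.5%, 90.9% for the same main isoform and a median CV of 11.7%. Agreement on the main isoform is easier to reach with fewer libraries, so its shares here do not compare directly with the 85.6% over all 5.

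A lower limit of 20 reads brought in less abundant genes: 4 isoforms, 10.8% with one isoform, a main share of 58.4%, a main cluster of 80.8%, 680.4 nt, 38.2% beyond 1000 nt, 75.3% with the same main isoform and 67.6% with AATAAA. The isoform counts had no minimum number of reads, so in genes with few reads a single read could pass the 5% limit. Its part in the higher number of isoforms was not tested. Libraries thinned to the smallest let fewer genes pass: 15.3% with one isoform, a main share of 64.5%, 1 cluster, a main cluster of 89.5%, 427 nt, 23.9% beyond 1000 nt, 87.4% with the same main isoform and 68.2% with AATAAA. Counting every gene name within 5 kb gave a main share of 62.3%, a main cluster of 86.3%, 533 nt and 30.6% beyond 1000 nt. Isoforms above 10% gave 2 isoforms and 24.9% with one. Clusters joined at 24 nt gave 1 cluster and a main cluster of 92.8%. Ends within 4 or 24 nt counted as the same in 90.1 and 94.3% of genes. Windows of 30 and 50 nt gave AATAAA in 65.3 and 68.5%. With no filter on low counts the median CV was 34.9%. The distance thus depends on which genes are deep enough to enter. No paired analysis was possible because only 1 group was analysed, so replicate numbers pair no samples.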
